A study of Caenorhabditis elegans with 39 samples.

Results

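The 60 genes described here encode proteins of the cytosolic ribosome of the nematode Caenorhabditis elegans. They were chosen by sequence name, from rpl-2 to rpl-32 and from rps-0 to rps-30, among 44968 gene rows, and are called members here. Of them, 31 encode proteins of the large (60S) subunit and 29 proteins of the small (40S) subunit. Messenger RNA was sequenced in 39 libraries of N2, the laboratory wild-type strain. Embryos of well-fed N2 parents were cultured under control conditions, through a short-term stay as dauer larvae or through a long-term stay. The dauer is an arrested, stress-resistant alternative larval stage. After recovery with food, larvae of the F3 generation were sampled at the first larval stage (L1), either 18 h into feeding or 24 h into starvation. There were 16 libraries of control ancestry, of which 4 were fed and 12 starved. Of short-term dauer ancestry 4 were fed and 9 starved, and of long-term dauer ancestry 3 were fed and 7 starved. Fed libraries exist in batch 1 only, so that feeding was compared in 9 control, 9 short-term dauer and 6 long-term dauer libraries of that batch. Feeding cannot be told apart from hours in culture or from washing, because fed larvae were washed more often. The labels call the libraries biological replicates but do not tie them to separate cultures, and the p-values measure the spread between libraries.

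A ribosome carries 1 copy of nearly every one of its proteins, and cells make these proteins in matched amounts. In animals, growth signals through the TOR kinase raise ribosome production, and arrested cells make few ribosomes. Much of that control in vertebrates acts on translation of ribosomal protein mRNAs, which share a pyrimidine tract at their start, so the mRNA level is only 1 layer of it. An L1 larva that hatches without food stops its development and resumes it when it is fed.

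Batch 1, of 24 libraries, had 20950821 to 30313127 reads in genes per library, and batch 2, of 15 libraries, had 8836723 to 13740490. Of the 60 members, 59 were detected in every library, with at least 3433 reads each, and all 59 passed the filters on low counts. The exception was rpl-16 (M01F1.2), which was listed at 0 in every library and is left out below. Annotation and counting options are not given, so this 0 may come from them and cannot be read as absence of its mRNA. Large subunit sums lack this gene. The labelled stage and feeding state were checked with fixed lists of 5 starvation and 5 moulting markers. The summed level of the moulting markers, in CPM (counts scaled to a common library size), was 1461 to 3542 CPM in the 11 fed libraries and 6.25 to 39.3 CPM in 27 of the 28 starved ones. The other starved library, LC4_49d of long-term dauer ancestry, held 2300 CPM of moulting markers and 51.2 CPM of starvation markers, values within or below the range of the fed libraries. It is called the library labelled starved LC4_49d. A further library, starved LC14 of short-term dauer ancestry, had 12.6% of its reads outside genes (1.75% to 4.74% in the other 38) and 52.9 CPM of adult yolk and sperm markers (2.37 to 8.63 CPM elsewhere). Starvation markers summed to 501 to 2459 CPM in 24 starved libraries and to 54.03 to 114 CPM in the fed ones. They were low in 3 further starved libraries, at 215 CPM in control LC6 of batch 1, 165 CPM in control 14 of batch 2 and 150 CPM in short-term dauer 14 of batch 2. In these 3 the acyl-CoA synthetase gene acs-2 was at 2.96 to 6.46 CPM, below every fed library (19.4 CPM or more), while their moulting markers, at 14.1 to 22.4 CPM, lay in the range of the other starved libraries. The members' results are given beside their values without these libraries where those differ, and the part of the markers in any result was not tested otherwise.

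The members were among the most abundant mRNAs. Between 34 and 52 of them stood among the 100 rows with most counts in each library. Together they held 9.35% to 14.2% of gene counts. The large subunit protein gene rpl-3 (F13B10.2), whose product reaches toward the peptidyl transferase centre, contributed most reads, 4130674 over all libraries or 4.61% of the members' counts. It was followed by rpl-4 (B0041.4), whose product lines the exit tunnel, with 3697545 reads, and by the small subunit gene rps-1 (F56F3.5) with 2609824. The fewest reads among detected members came from rps-28 (Y41D4B.5; 328085), rpl-25.2 (F52B5.6; 369705) and rps-21 (F37C12.11; 426373). Read totals follow transcript length, so levels were also taken as mean CPM per kilobase of annotated exon. On that scale rps-25 ranked first with 4769 CPM per kb, rps-23, a protein of the decoding centre, second with 4417 and rpl-10 next with 4286. The lowest were rpl-25.2 with 961 CPM per kb, rpl-30 with 1105, rpl-25.1 with 1513 and rps-28 with 1684. Since rpl-25.1 and rpl-25.2 are paralogs for 1 ribosomal position, each was measured as 1 of a pair. The kit did not keep the strand, and 13 members have an exon that overlaps another annotated gene, so reads of those stretches cannot be assigned by strand. These 13 are rpl-2, rpl-5, rpl-7, rpl-7A, rpl-14, rpl-22, rpl-23, rpl-28, rpl-32, rps-4, rps-16, rps-18 and rps-20.

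Within batch 1, the members' share of gene counts was on average higher in fed than in starved larvae of each ancestry. Fed and starved libraries overlapped in control descendants. In control fed larvae the shares were 10.24%, 11.9%, 12.3% and 13.2% (mean 11.9% ± 1.22, SD, n = 4). In control starved larvae of batch 1 they were 10.3%, 10.4%, 11.3%, 11.3% and 11.4% (mean 10.9% ± 0.535, n = 5). The low fed value came from LC12, which lay below every starved control library of batch 1, while the other 3 fed libraries lay above all 5. Short-term dauer descendants held 12.0%, 12.9%, 13.6% and 14.2% when fed (mean 13.2% ± 0.942, n = 4) and 10.6% to 11.6% when starved (mean 11.11% ± 0.441, n = 5). Long-term dauer descendants held 11.3%, 12.0% and 13.6% when fed (mean 12.3% ± 1.20, n = 3) and 9.78%, 10.5% and 10.8% when starved (mean 10.4% ± 0.528, n = 3). Neither dauer ancestry had overlap between fed and starved libraries of batch 1. In batch 2, starved long-term dauer libraries 2 and 4, at 11.6% and 11.5%, passed the lowest fed long-term value, 11.3%. Libraries that carry the same number gave a fed minus starved share above 0 in 3 of 4 control pairs, 4 of 4 short-term and 3 of 3 long-term pairs. The exception was the control pair LC12, with -0.167 percentage points. No test was made of this share, because it is a score over chosen genes.

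In starved larvae the share overlapped between ancestries in both batches. In batch 2 it was 9.53% to 12.5% in control (median 9.57%, n = 7), 9.35% to 10.8% in short-term dauer (n = 4) and 9.65% to 11.6% in long-term dauer descendants (n = 4). The highest of these came from control library 13 and the next from long-term dauer libraries 2 and 4, at 11.6% and 11.5%. In bulk RNA a change in level per cell and a change in the cells that make it cannot be told apart.

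**Figure D1:**
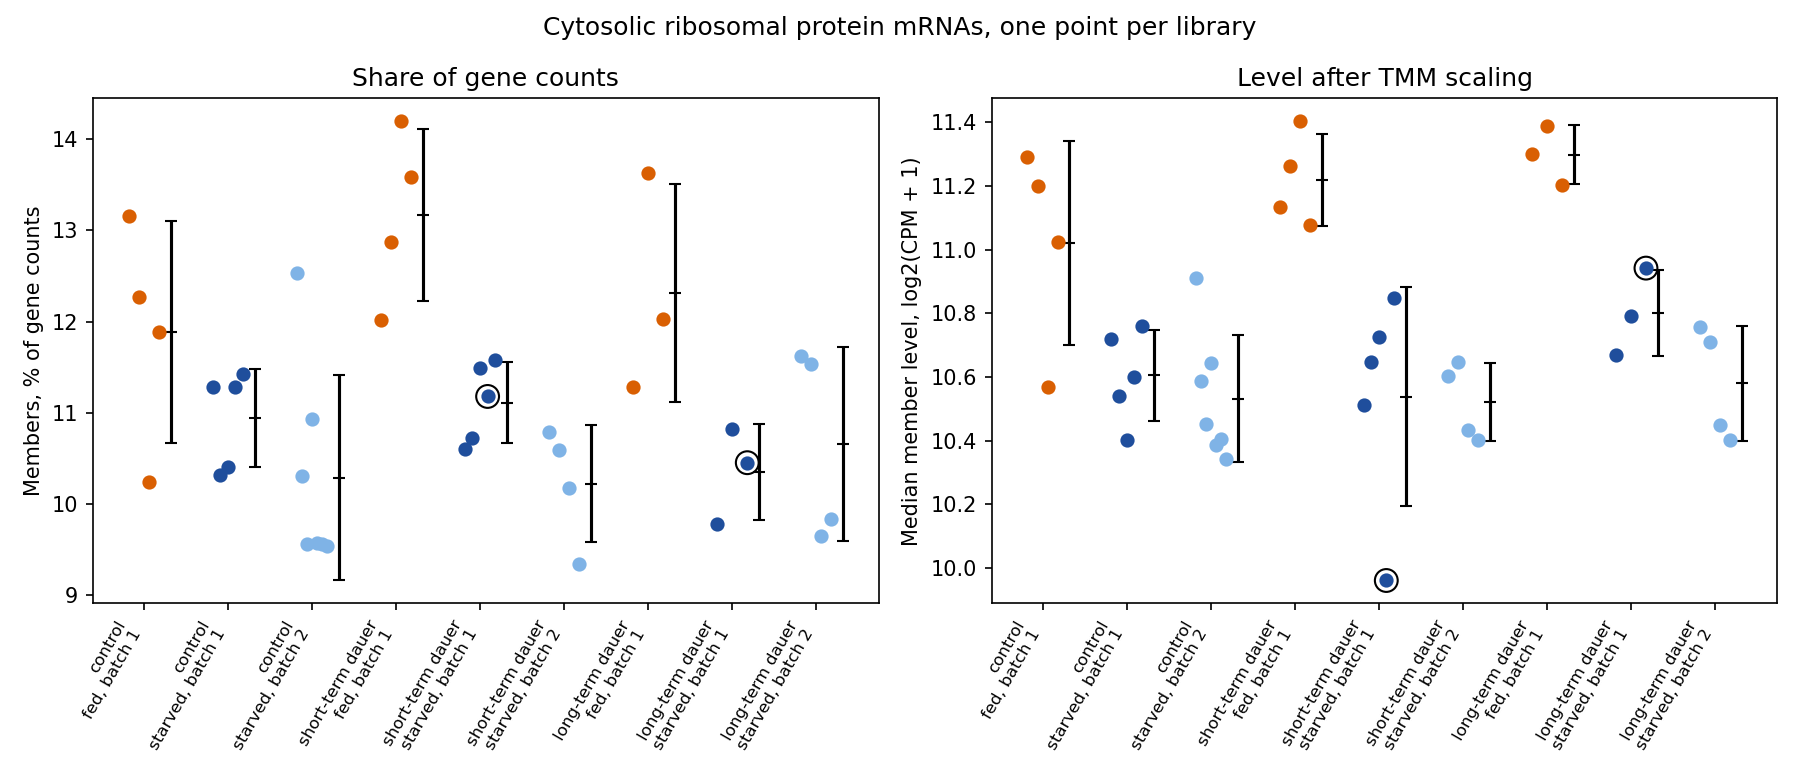
The left panel plots the members' share of gene counts in percent and the right panel their median log2(CPM + 1), 1 point per library, with group mean and SD to the right of the points; orange is fed, dark blue starved batch 1, light blue starved batch 2, and rings mark the library labelled starved LC4_49d and starved short-term dauer LC14. LC14 has the lowest median (9.96) while its share, 11.18%, lies within its group, and LC4_49d has the highest median (10.94) of the 13 starved libraries of batch 1 at a share of 10.45%.

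The share and the scaled level differed in how far they separated fed from starved larvae. Scaling by TMM, edgeR's trimmed mean method, uses the bulk of genes and not the library total. TMM factors were 0.657 to 1.04 in fed libraries and 0.814 to 1.75 in the starved libraries of batch 1, and the highest, 1.75, belonged to LC14 of short-term dauer ancestry. In LC14 the members' median level was 9.96 on the log2(CPM + 1) scale, against 10.51 to 10.85 in the other 4 starved libraries of that group. In the library labelled starved LC4_49d, 51 of 59 members stood above each of the 12 other starved libraries of batch 1. All 59 lay within the range of the fed libraries, and 55 lay below every fed library other than control fed LC12. Shares over all genes are not given for these counts, so they describe the library and not the members in particular.

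Feeding was compared first in control descendants, to ask which members differ between fed and arrested L1 larvae. In edgeR's quasi-likelihood test with Benjamini-Hochberg adjustment, 31 of 59 members were called higher in fed larvae and 0 lower, at an adjusted p-value under 0.05. Of all 19406 genes tested, 53.7% were called in either direction, 28.7% higher and 25% lower, so that 31 of 59 is above the background for higher calls and close to that for any call. The log2 fold change was above 0 in 59 of 59 members, with a median of 0.39 and an SD across members of 0.09. The median over all genes was -0.15 with an SD of 1.46. Single members carried a standard error of 0.15 to 0.18. That error measures spread between libraries, much of which members share, and is not the error of a difference between members. Differences between members were not tested. By subunit, 21 of 29 small subunit members were called (median 0.43) and 10 of 30 large subunit members (median 0.36).

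The direction depended on scaling for a few members. With library totals in place of TMM factors, the members' median fell to 0.13, the median of all genes to -0.41, 55 of 59 members kept a value above 0 and 11 were called. Leaving out single libraries moved the count from 31 to between 5 and 53. It was 5 without control fed LC10, 13 without control fed LC11, 19 without control fed LC14 and 53 without control fed LC12. Of starved libraries, the count was 17 without control LC11, 13 without control LC12, 17 without control LC14, 48 without control LC6, where the median was 0.49, and 51 without short-term dauer LC14. With both LC4_49d and short-term dauer LC14 left out it was 53. The share of all genes called is not given for these settings, so the counts cannot be read as changes of the members alone.

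The largest control differences were in rpl-30, rpl-28, rps-18, rps-15 and rps-4. The large subunit gene rpl-30 (Y106G6H.3), whose yeast counterpart binds its own transcript, measured 569, 813, 919 and 968 CPM in fed and 445, 501, 502, 519 and 526 CPM in starved control larvae. Each fed library was above each starved one, and rpl-30 was the only member of which this held in control descendants (27% of all genes). Its log2 fold change was 0.64 (SE 0.18; adjusted p = 0.00502 in edgeR's quasi-likelihood test). Without fed LC12 all 59 members were above every starved control library, as were 31.9% of all genes.

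Another large subunit gene, rpl-28 (R11D1.8), measured 787, 1102, 1247 and 1350 CPM in fed and 588, 644, 681, 722 and 812 CPM in starved control larvae. Fed LC12, at 787 CPM, fell below starved LC6, at 812 CPM, and the other fed libraries lay above all starved ones. The log2 fold change of rpl-28 was 0.63 (SE 0.18; adjusted p = 0.00445 in edgeR's test). The small subunit head proteins followed. For rps-18 (Y57G11C.16) the fed values were 1519, 2066, 2300 and 2449 CPM and the starved ones 1144 to 1537 CPM, with a log2 fold change of 0.57 (adjusted p = 0.00515). For rps-15 (F36A2.6) they were 1339 to 2281 CPM and 1027 to 1472 CPM, with a log2 fold change of 0.55 (adjusted p = 0.00769). In both, fed LC12 alone overlapped the starved libraries. The 40S protein gene rps-4 (Y43B11AR.4) had 2876 to 4895 CPM in fed and 2444 to 2957 CPM in starved larvae, with a log2 fold change of 0.53 (adjusted p = 0.00904 in edgeR's test).

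The smallest differences were in rps-20, rpl-10, rpl-4, rpl-18 and rpl-2, and none of the 5 was called in control descendants. The small subunit gene rps-20 (Y105E8A.16) measured 1312, 1816, 2067 and 2219 CPM in fed and 1319, 1449, 1519, 1654 and 1692 CPM in starved control larvae. Fed LC12 was the lowest of all 9 libraries for rps-20, and the other 3 fed libraries were the highest. Its log2 fold change was 0.21 (SE 0.17; adjusted p = 0.293 in edgeR's test). For rpl-10 (F10B5.1), which joins the large subunit late in its maturation, fed larvae had 2460 to 4042 CPM and starved larvae 2364 to 3227 CPM, with a log2 fold change of 0.22 (adjusted p = 0.230). The exit tunnel gene rpl-4 had 3923 to 6524 CPM and 3973 to 5150 CPM, a log2 fold change of 0.23 (adjusted p = 0.288). The values were 0.25 for rpl-18 (Y45F10D.12; adjusted p = 0.230) and 0.26 for rpl-2 (B0250.1; adjusted p = 0.202), a protein of the peptidyl transferase region. The span from rps-20 to rpl-30 is 0.43 on the log2 scale. Each end of it carries a standard error of up to 0.18, much of it shared by members, and the span was not tested.

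In short-term dauer descendants, 57 of 59 members were called higher in fed larvae and 0 lower in edgeR's test, against 58.3% of all genes in either direction, 28% higher and 30.2% lower. The members' median log2 fold change was 0.61 with an SD of 0.11, and that of all genes -0.28. The largest values were again in large subunit genes: rpl-28, with 1172, 1240, 1314 and 1532 CPM in fed and 414, 657, 731, 744 and 809 CPM in starved larvae, had 0.89 (SE 0.18; adjusted p = 0.000229). No fed value of rpl-28 overlapped a starved one, and the 414 CPM came from starved LC14. Next came rpl-30 with 0.87 (adjusted p = 0.000408) and rps-18 with 0.79 (adjusted p = 0.000338). The lowest called values were 0.43 in rpl-18, rpl-10 and rpl-2. The 2 members not called were rps-20, with 0.38 (adjusted p = 0.0544), and rpl-4, with 0.39 (adjusted p = 0.0676). In 58 of 59 members every fed library was above every starved one (28.1% of all genes), and the exception was rps-20, of which starved LC6 held 1919 CPM and fed LC14 held 1876 CPM. Without starved LC14 the count of non-overlapping members was again 58 (31.4% of all genes). With both LC14 and LC4_49d left out, 55 members were called and the median log2 fold change was 0.50. For that setting the share of all genes called is not given.

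In long-term dauer descendants every member was higher in each fed library than in each starved one, 59 of 59 against 15.2% of all genes, yet 1 member was called by edgeR. The call was rpl-28, with 1249, 1408 and 1504 CPM in fed and 718, 771 and 1033 CPM in starved larvae. Its fed and starved libraries did not overlap, and 1033 CPM belonged to the library labelled starved LC4_49d. The log2 fold change was 0.67 (SE 0.22; adjusted p = 0.0463), and 12.1% of all genes were called in either direction, 5.81% higher and 6.33% lower. The members' median was 0.50 (SD 0.07), between those of the other ancestries, and 49 of 59 had an unadjusted p under 0.05. Of all 19406 genes tested, 6356 had an unadjusted p under 0.05. The members' standard errors were 0.18 to 0.22 on the log2 scale. Leaving out LC4_49d raised the count to 39 with a median of 0.62, leaving out short-term dauer LC14 raised it to 44, leaving out control starved LC6 to 14 and leaving out control fed LC12 to 2. Without both libraries that stand apart 55 members were called. DESeq2 called 36 on the libraries of the main fit. The share of all genes called is not given for these settings, so a rise in the count cannot be read as particular to the members. Without LC4_49d, too, all 59 members had fed libraries above starved ones, then beside 36.7% of all genes.

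**Figure D2:**
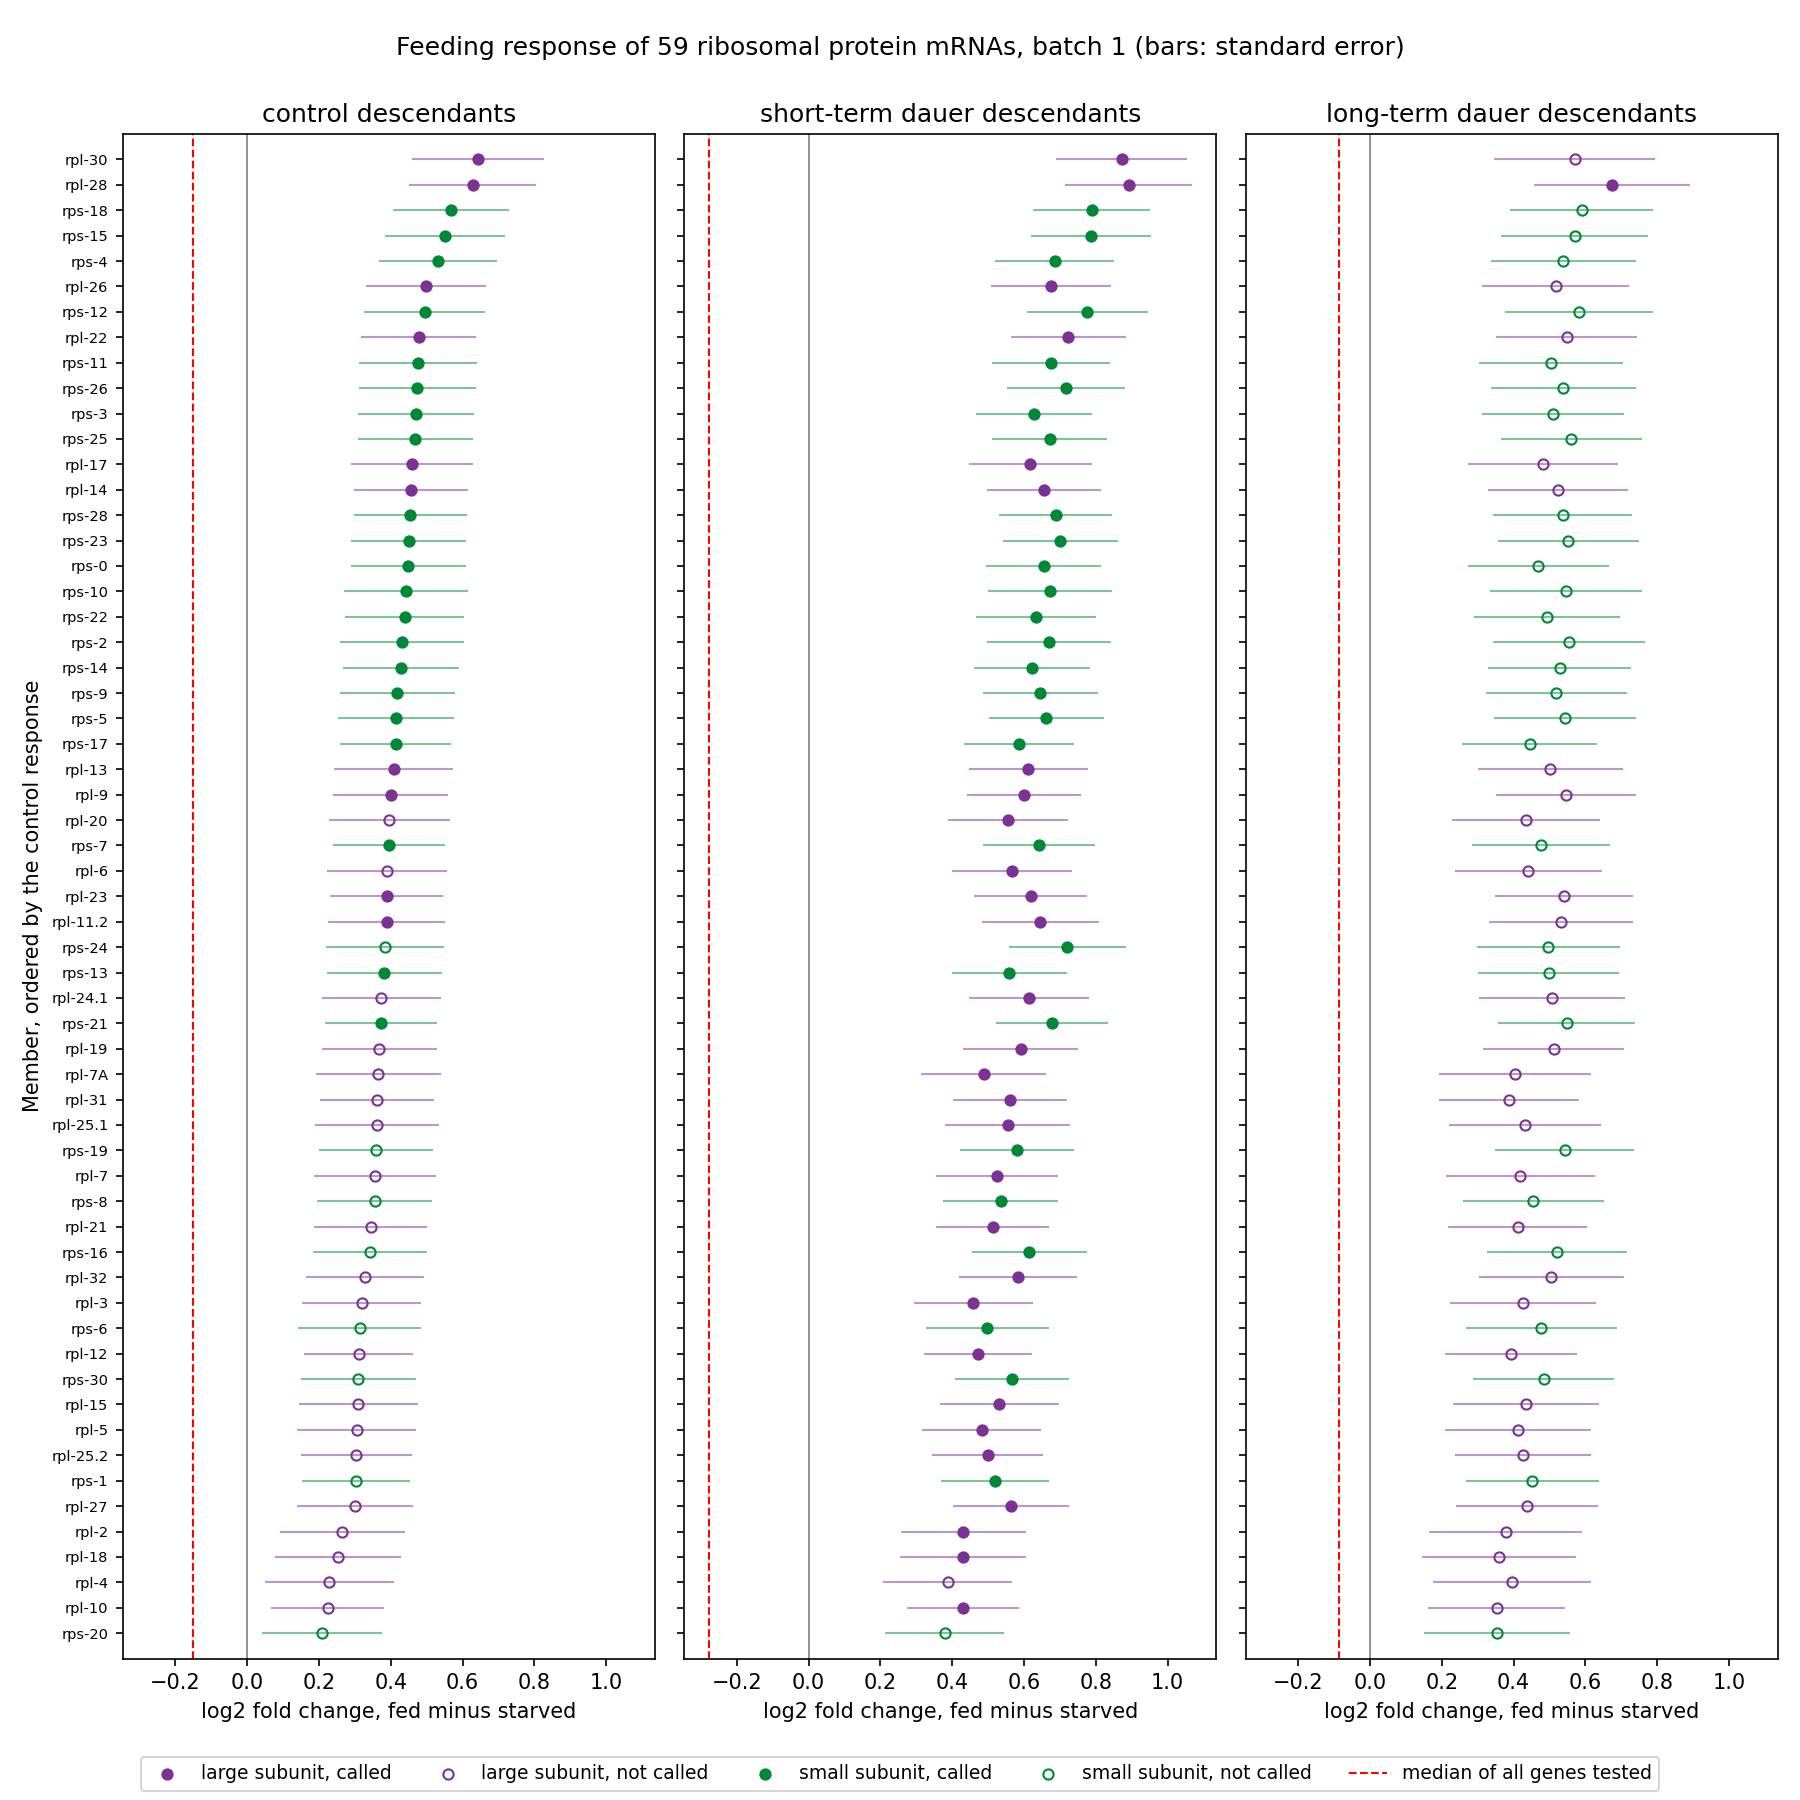
Log2 fold change of each of 59 members, fed minus starved, in descendants of control, short-term dauer and long-term dauer ancestors (batch 1), ordered by the control value; bars are standard errors, filled points were called in edgeR, purple is the large and green the small subunit, and the dashed line is the median of all genes tested. All 59 points lie right of 0 in each panel, with 31, 57 and 1 called, and rpl-30 and rpl-28 lead while rps-20, rpl-10 and rpl-4 lie last.

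The median was higher for the small than for the large subunit in each ancestry. It was 0.43 against 0.36 in control descendants, 0.66 against 0.56 after short-term and 0.52 against 0.44 after long-term dauer. The ratio of large to small subunit counts was 1.07 ± 0.007 (SD, n = 4) in control fed libraries, from 1.06 to 1.07, and 1.12 ± 0.017 (n = 5) in control starved ones, from 1.104 to 1.15. These do not overlap. Short-term dauer descendants had 1.05 ± 0.032 when fed (n = 4) and 1.12 ± 0.048 when starved (n = 5), where starved LC14, at 1.03, fell among the fed libraries. Long-term dauer descendants had 1.06 ± 0.024 when fed and 1.11 ± 0.045 when starved (n = 3 each), where the library labelled starved LC4_49d had 1.07. The starved ratio was lower in batch 2, with 1.06 ± 0.037 (n = 7) in control descendants, from 0.986 to 1.099, a range that holds all 4 control fed values. Members with longer annotated exons had lower feeding responses: Pearson's r across 59 members, which share libraries, was -0.29 in control, -0.46 in short-term and -0.40 in long-term dauer descendants. The median exon length of the 60 members was 603 bases.

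Whether ancestry altered the feeding response was tested as the difference of responses. In edgeR 0 of 59 members were called for long-term dauer against control and 0 for short-term dauer against control, with 0% of all genes called. At an unadjusted p under 0.05 there were 0 members in either, against 1738 and 439 of all 19406 genes. DESeq2 and limma voom likewise called 0 members. The median difference of members was 0.10 (SE of single members 0.24 to 0.29) for long-term and 0.20 (SE 0.21 to 0.26) for short-term dauer. Without control starved LC6, low in starvation markers, the medians were 0.01 for long-term and 0.12 for short-term dauer, with 0 members called. With library weights in limma voom the short-term median was -0.04. These comparisons share the control libraries.

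The level in fed larvae was likewise compared by ancestry. Against control, 59 of 59 members had a log2 fold change above 0 in long-term dauer descendants (median 0.24, SE 0.12 to 0.15) and in short-term dauer descendants (median 0.17, SE 0.11 to 0.14). None was called by edgeR, DESeq2 or limma voom (0% of all genes in edgeR), while 8 and 1 had an unadjusted p under 0.05 in edgeR. Of all 16132 genes tested, 706 and 826 had an unadjusted p under 0.05. With library totals the long-term median fell to 0.04 and 54 of 59 values stayed above 0. Lane moved with ancestry here, since the long-term dauer fed libraries were all on lane 4 and the short-term ones all on lane 5. With lane as a term the medians were 0.08 for long-term and 0.35 for short-term dauer, and 0 members were called in either.

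In starved larvae of both batches, 0 of 59 members were called for long-term dauer against control and 0 for short-term dauer against control by edgeR, DESeq2 or limma voom (0% of all genes in edgeR). At an unadjusted p under 0.05, edgeR gave 0 members in either. The median log2 fold change was 0.10 for long-term dauer, with a standard error of 0.08 to 0.12 for single members, and -0.03 for short-term dauer, with 0.07 to 0.11. Within batch 1 the long-term median was 0.15 and within batch 2 it was 0.06. The batch 1 value rests on 3 long-term dauer libraries, all on lane 4, including the library labelled starved LC4_49d. No lane term was fitted in starved larvae. For short-term dauer they were -0.05 and -0.02. With library totals the long-term median was 0.00170, still above 0, and the short-term one changed sign to 0.02. With both libraries that stand apart left out they were 0.07 and 0.00268, and in limma voom the short-term one was 0.05. Without the 3 libraries low in starvation markers they were 0.13 and 0.01, with 0 members called.

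Coherence was described by the correlation of each member's log2(CPM + 1) with the median of the other members across libraries of 1 feeding state and batch. These points share scaling factors, and no test was made. The median r was 0.981 in the 11 fed libraries, 0.973 in the 13 starved libraries of batch 1 and 0.963 in the 15 of batch 2. Over all 19406 genes the median r with the members was 0.138, 0.00256 and 0.0124. All 59 members had r above 0.9 in fed larvae, 57 in starved batch 1 and 49 in starved batch 2. Of all genes, 2.23%, 1.83% and 0.448% had r above 0.9 in these sets. With library totals the median r was 0.942, 0.755 and 0.946.

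The least coherent members differed between sets of libraries. In fed larvae the lowest were rps-16 (T01C3.6) with 0.945, rpl-25.1 (F55D10.2) with 0.949 and rpl-5 with 0.950. In starved batch 1 they were rps-21 with 0.844, rps-24 (T07A9.11) with 0.852 and rps-15 with 0.903. In starved batch 2 they were rpl-7A (Y24D9A.4) with 0.608, rpl-25.1 with 0.718 and rpl-30 with 0.724. In batch 2 rpl-7A ranged only from 1056 to 1355 CPM, and control library 13, where the members' median was highest, held 1220 CPM of it. In the same library rps-21, a 40S protein needed in yeast for rRNA maturation, stood at 846 CPM against 443 to 585 CPM in the 6 other control libraries. The long-term dauer library 2 was also high in rps-21, at 842 CPM.

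**Figure D3:**
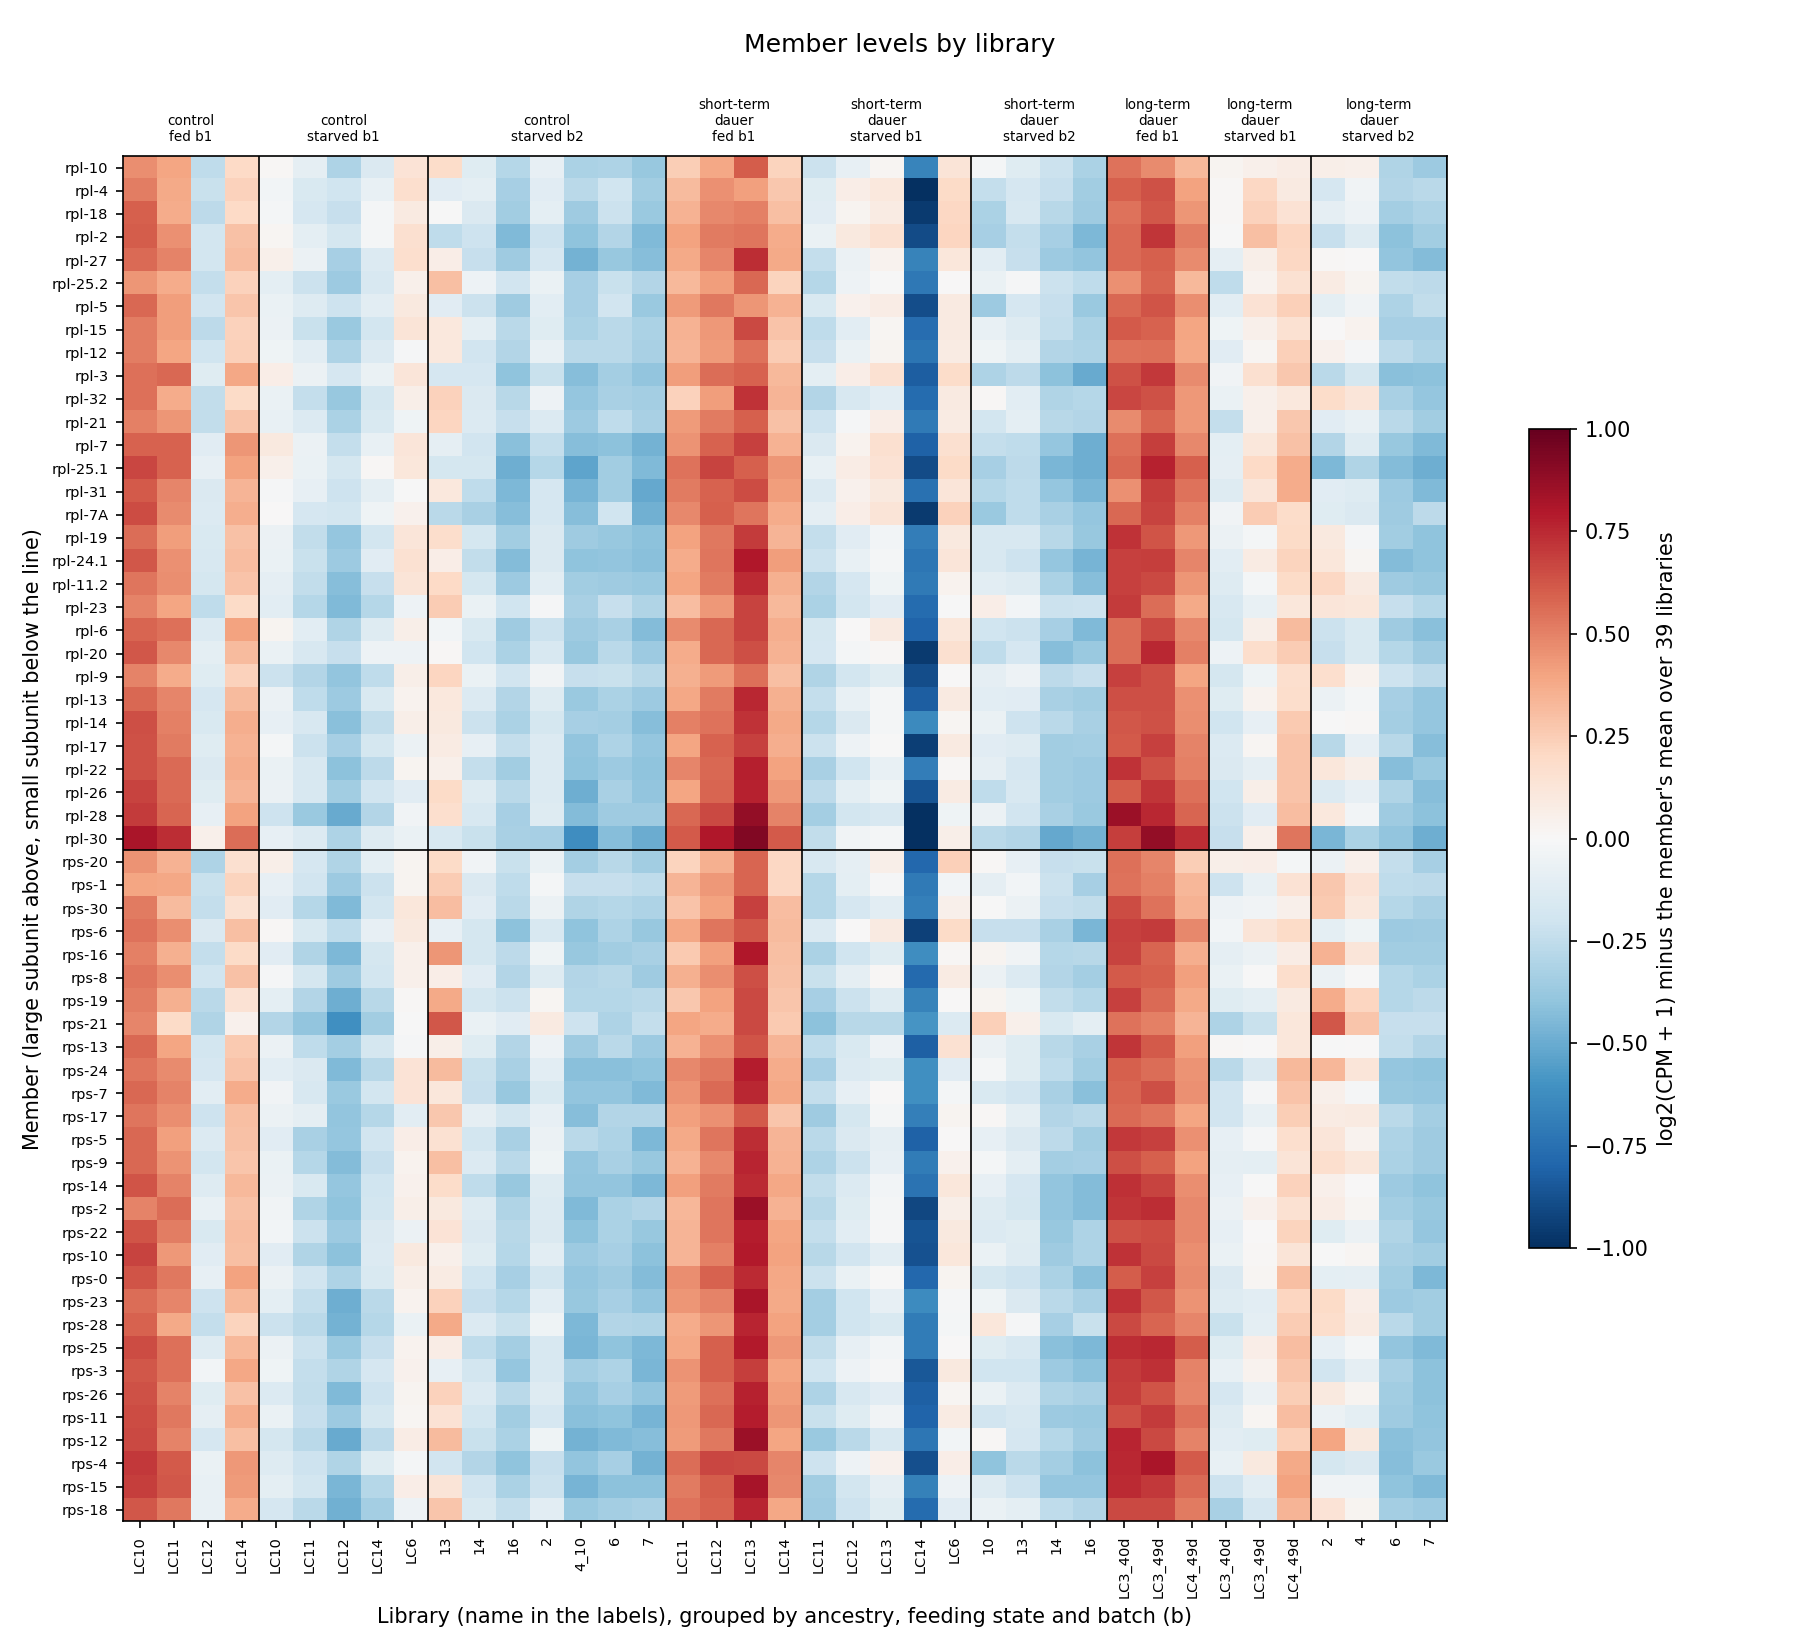
Log2(CPM + 1) of 59 members minus each member's mean over 39 libraries, libraries grouped by ancestry, feeding state and batch (b1, b2), colours saturating at 1 in either direction. Columns are nearly uniform from top to bottom: fed libraries are red apart from control LC12, starved short-term dauer LC14 is the bluest column, and rps-21 departs from its column in batch 2 libraries 13 of control and 2 of long-term dauer ancestry.

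Batch was compared in the starved larvae, where every batch 2 library was shallower than every batch 1 library and came from another lane. Batch cannot be told apart from depth or lane. In edgeR 17 members were called lower in batch 2 and 1 higher, against 25.3% of all genes called, 13.8% lower and 11.4% higher. Of the 17, 13 encode large subunit proteins. The median over members was -0.11 with an SD of 0.13, wider than in any feeding response, and that over all genes was -0.03. With library totals the members' median was -0.05 and 16 were called. Without both libraries that stand apart 22 were called, and without the 3 libraries low in starvation markers 17. For these settings the share of all genes called is not given, so the counts cannot be read as changes of the members alone.

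The largest batch difference was in rpl-25.1, which measured 632 to 776 CPM in starved control larvae of batch 1 and 496 to 634 CPM in batch 2. Batch 2 libraries 13 and 14, both at 634 CPM, passed the lowest of batch 1, and the other 5 lay below all of it. The log2 fold change was -0.41 (SE 0.07; adjusted p = 0.000258 in edgeR's test). Its paralog rpl-25.2 did not pass the test, with -0.00343 (adjusted p = 0.977). Per kilobase the ratio of rpl-25.1 to rpl-25.2 was 1.70 ± 0.054 (n = 5) in control starved larvae of batch 1, 1.76 ± 0.043 (n = 4) in control fed larvae and 1.32 ± 0.11 (n = 7) in control starved larvae of batch 2. Its highest value in batch 2 was 1.41 and its lowest in batch 1 control libraries 1.61, while starved short-term dauer LC14 had 1.36.

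Next lower were rpl-2, with -0.35 (adjusted p = 0.000635), and rpl-3, with -0.35 (adjusted p = 0.000386 in edgeR's test). For rpl-3 the starved control libraries held 4435 to 5413 CPM in batch 1 and 3704 to 4442 CPM in batch 2, and only 1 library of batch 2, number 13, passed the lowest of batch 1. The single higher call was rps-21, with 358, 417, 431, 447 and 548 CPM in batch 1 and 443 to 846 CPM (median 507) in batch 2 control libraries. These overlap, and the log2 fold change was 0.30 (SE 0.09; adjusted p = 0.0233). The smallest lower calls were rps-0 (B0393.1), with -0.18, and rps-3 (C23G10.3), with -0.20. Across 59 members the batch difference had a Pearson r of -0.51 with log2 exon length. Such a slope was also present between short-term dauer and control fed larvae (r = -0.66), where no member was called.

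**Figure D4:**
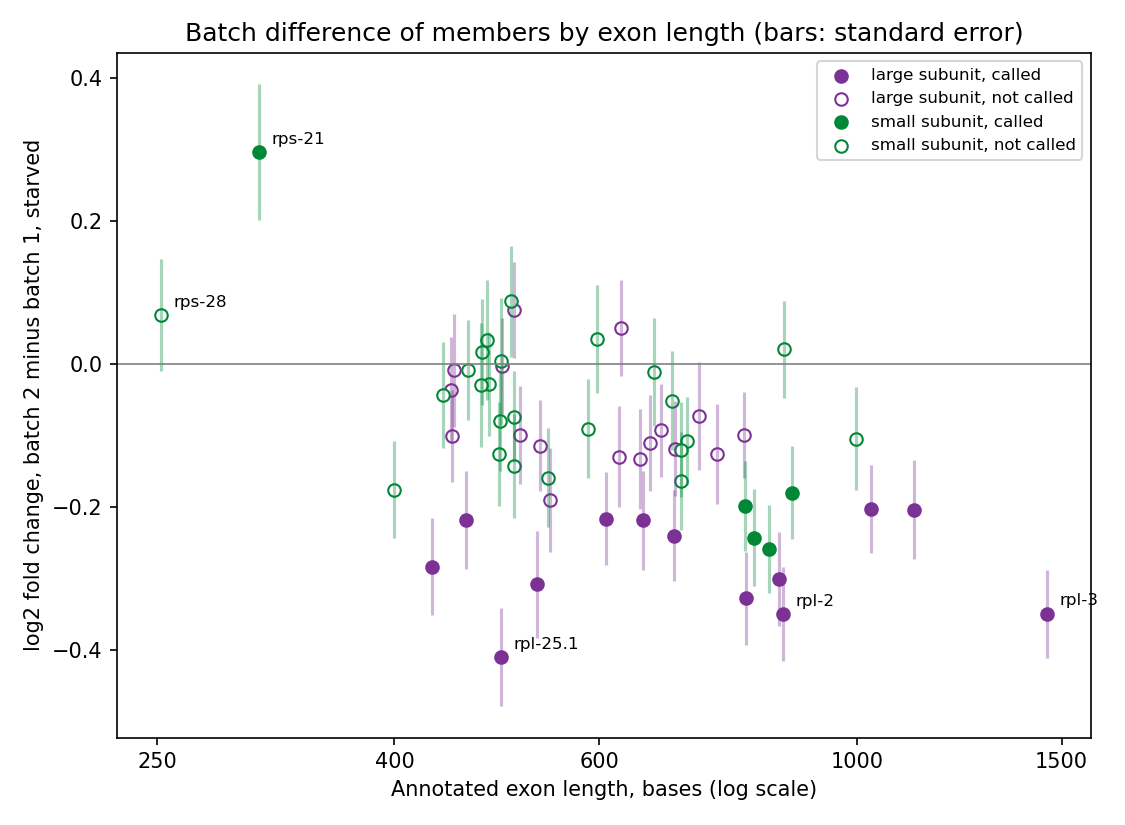
Log2 fold change of starved larvae, batch 2 minus batch 1, against annotated exon length in bases on a log axis, 1 point per member with its standard error; filled points were called in edgeR, purple is the large and green the small subunit. The only called point above 0 is rps-21 at 306 bases, rpl-25.1 is the lowest at -0.41, and most points of the longer members lie below 0.

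The paralogs of rpl-11 and of rpl-24 showed unlike feeding responses in control descendants. Besides the members rpl-11.2 (F07D10.1) and rpl-24.1 (D1007.12), the genome holds rpl-11.1 and rpl-24.2, which are outside the 60. In control descendants rpl-11.2 had a feeding log2 fold change of 0.39 (adjusted p = 0.0488) and rpl-11.1 0.88 (adjusted p = 3.12e-05 in edgeR's test). The ratio of rpl-11.1 to rpl-11.2 per kilobase was 0.0560 ± 0.0022 in fed (n = 4) and 0.0404 ± 0.0044 (n = 5) in starved control larvae of batch 1, with no overlap. Fed and starved libraries of batch 1 did overlap in this ratio after short-term dauer, with 0.0525 to 0.0615 and 0.0460 to 0.0586, and after long-term dauer, with 0.0532 to 0.0588 and 0.0503 to 0.0535. Control starved larvae of batch 2 ran from 0.0407 to 0.0680, a range that holds all 4 control fed values. For rpl-24.1 the log2 fold change was 0.37 (adjusted p = 0.0629), and for rpl-24.2, whose yeast counterpart is an assembly factor that leaves the subunit before it is mature, it was -1.36 (adjusted p = 1.8e-05). The ratio of rpl-24.1 to rpl-24.2 was 15.4 to 21.9 in fed and 4.79 to 6.68 in starved control larvae. In the library labelled starved LC4_49d it was 17.6, within the fed range. For the large subunit neighbours rpl-7 (F53G12.10) and rpl-7A the log2 fold changes were 0.36 and 0.37, neither called, and their ratio per kilobase was 2.06 in fed and in starved control larvae (SD 0.106 and 0.111).

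Some members are regulated by splicing in C. elegans: rpl-3, rpl-7A, rpl-12 and, outside the 60, rpl-1 make unproductive transcripts that nonsense-mediated decay removes. Gene counts do not separate these forms. None of the 4 was called in control descendants, with log2 fold changes of 0.32 in rpl-3, 0.37 in rpl-7A, 0.31 in rpl-12 (JC8.3) and 0.38 in rpl-1 (adjusted p 0.0611 to 0.108 in edgeR's test). All 4 were called higher in short-term dauer descendants (28% of all genes), with a median of 0.48. In long-term dauer descendants 0 were called (5.81% of all genes higher), with a median of 0.42. The control values of rpl-12 were 1198 to 1964 CPM in fed and 1108 to 1361 CPM in starved larvae, which overlap through fed LC12.

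The 5S RNA partners rpl-5 (F54C9.5) and rpl-11.2 had control log2 fold changes of 0.31 (adjusted p = 0.125) and 0.39 (adjusted p = 0.0488). For rpl-5 fed larvae measured 2666, 3702, 4084 and 4544 CPM and starved larvae 2639 to 3271 CPM. Only fed LC12 overlapped the starved range. The S6 kinase target rps-6 (Y71A12B.1) had 2059, 2813, 3148 and 3327 CPM in fed and 1914, 2051, 2162, 2301 and 2442 CPM in starved control larvae. Again LC12 overlapped, and the log2 fold change of 0.31 was not called (adjusted p = 0.127 in edgeR's test). It was called in short-term dauer descendants, at 0.50 (adjusted p = 0.0171), and had 0.48 in long-term dauer descendants (adjusted p = 0.117).

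Beside the members stood lists of other translation genes, chosen with earlier results known and given for comparison of size. Of all genes tested in control descendants, 28.7% were called higher and 25% lower. Among 23 other genes listed as cytosolic ribosomal proteins, 13 were called higher and 1 lower in control fed larvae, with a median log2 fold change of 0.43. Their highest was rpl-41.1 with 1.43. Their lowest, and the only gene called lower, was rpl-24.2, whose yeast counterpart is an assembly factor that leaves the subunit before it is mature. A second gene below 0, rpl-42, had -1.20 in control (adjusted p = 0.0532) and was called lower in short-term dauer descendants at -2.32 (adjusted p = 0.000938 in edgeR's test). Of 8 translation elongation factors 3 were called higher and 0 lower, with a median of 0.29, close to the members. The highest was eef-1A.2 with 1.73 and the lowest eef-2, the translocation factor, with -0.26, which was not called.

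The assembly and initiation genes had larger values. Of 15 ribosome biogenesis genes 14 were called higher and 1 lower, with a median of 1.41. They ran from nst-1, the nucleostemin gene, at -0.87 to fib-1, the rRNA methyltransferase fibrillarin, at 2.60. Of 22 translation initiation factors 18 were called higher and 1 lower, with a median of 1.15, from ife-5 at -0.40 to inf-1, the helicase eIF4A, at 2.68. Of 67 mitochondrial ribosomal proteins 60 were called higher and 3 lower, with a median of 1.17, from mrps-11 at -1.43 to mrpl-45 at 2.10. Of a list of 7 genes made up of the nucleolar repressor ncl-1 and TOR regulators, 2 were called higher and 1 lower, with a median of 0.02, from rheb-1 at -0.57 to ragc-1 at 1.11. Beside these counts, 28.7% of all genes tested were called higher and 25% lower in control descendants. The difference between these lists and the members was not tested. The 59 members had an SD of 0.09 on this scale, against 0.84 over biogenesis genes, 0.75 over initiation factors and 0.63 over mitochondrial ribosomal proteins. The SD was 0.57 over the other cytosolic ribosomal proteins, 0.78 over elongation factors and 0.55 over ncl-1 and TOR regulators.

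**Figure D5:**
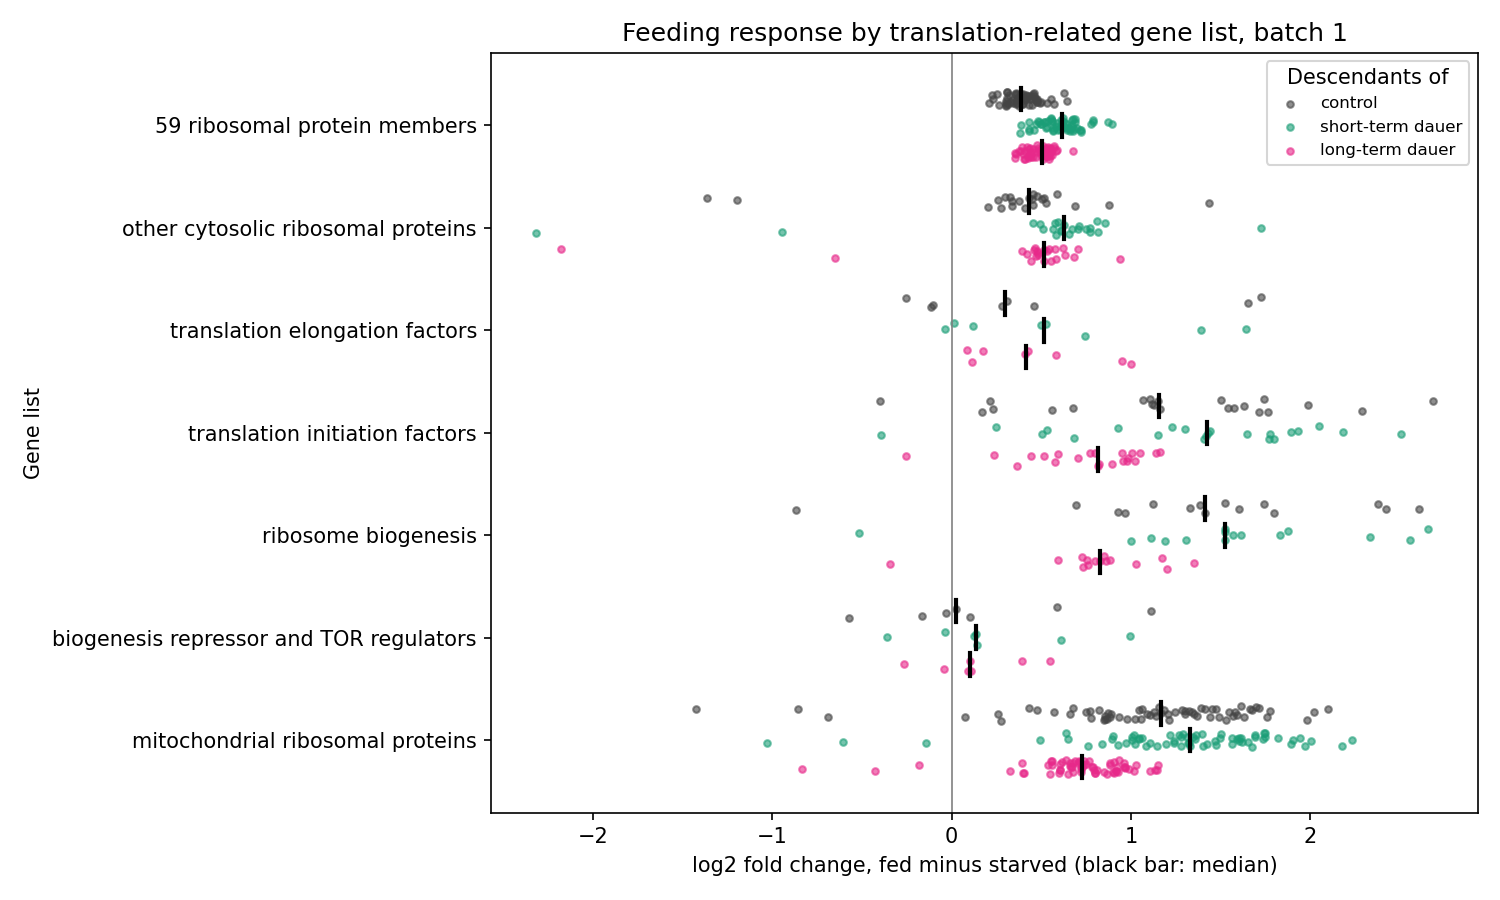
Log2 fold change of fed minus starved larvae in batch 1, 1 point per gene, for the 59 members and 6 lists of related genes in descendants of control (grey), short-term dauer (green) and long-term dauer (pink) ancestors; black bars are medians and the vertical scatter within a row carries no value. Members form a narrow band at medians of 0.39, 0.61 and 0.50, while ribosome biogenesis genes spread around 1.41, 1.52 and 0.83.

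Long-term dauer descendants had a lower median than control in 3 of these lists and a higher one in the other 3, as in the members. The median of biogenesis genes was 1.52 in short-term and 0.83 in long-term dauer descendants, below the control value of 1.41, whereas the members' long-term median of 0.50 was above their control median of 0.39. Mitochondrial ribosomal proteins had 1.33 and 0.73, against 1.17 in control, and initiation factors 1.42 and 0.82, against 1.15. Other cytosolic ribosomal proteins had a long-term median of 0.51 against 0.43 in control, elongation factors 0.42 against 0.29, and the list of ncl-1 and TOR regulators 0.10 against 0.02. No gene of these lists was called in the test of the response difference by edgeR. The library labelled starved LC4_49d is 1 of the 3 starved libraries behind each long-term value.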

How the data were processed

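Each library came as a deposited table of raw read counts, whole numbers with 1 row per gene. The submitters' processing notes name Bowtie 1.1.2, HTSeq and edgeR without giving their role; genome build, annotation and counting options are not given in the sources used here, so no coordinates are given. RNA was polyadenylated and the kit non-directional, per the labels' protocols. The 5 summary rows (20.4% to 31.4% of reads) were kept out of totals and tests. Of 44968 rows 44443 matched Ensembl release 115 (WBcel235) transcript names, used for symbols, chromosomes and exon length.

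Tests on the authors' counts used R 4.3.3 with edgeR 4.0.16 (TMM, filterByExpr, robust quasi-likelihood fit, Benjamini-Hochberg adjustment over all genes, adjusted p under 0.05). Feeding used 24 libraries of batch 1 with 1 coefficient per group, starved ancestry 28 libraries with a batch term, and fed ancestry 11. A standard error is the fold change over the square root of F. CPM use TMM factors over 39 libraries and log2 values add 1. DESeq2 1.42.0 and limma 3.58.1 voom were alternatives, and the fits were tested on simulated data.

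Groups came from labels, not file names. Over 71 pairs of libraries within a group the lowest chi-square per degree of freedom was 3.77, and each library was counted as 1 replicate. That value cannot show that libraries came from separate cultures. Depth limits members little, since the fewest reads of one were 3433. Members were taken by name and not by value, but the choice of this gene family and of the lists was made with earlier results of these data known. Named were the 5 highest and lowest control feeding responses, the 3 highest and lowest calls elsewhere, the 3 most and least counted or least coherent members, paralogs, unproductively spliced genes, rpl-5, rpl-11.2 and rps-6.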

Additional observations from a re-analysis of the deposited data

Results flagged for a closer look

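Among 203 sets of 4, 5 or 7 libraries checked for a single library far from its group, 15 stood apart. Independent sets would give about 10.15 by chance, or 1 in 20. Members move together within a library, so the sets are not independent and no excess can be read from these counts. Most of the 15 came from 1 library, starved short-term dauer LC14 of batch 1, which had 12.62% of its reads outside genes. Its ratio of large to small subunit counts was 1.032. It had the lowest value of its group of 5 in all 59 detected members, and on the log2(CPM + 1) scale it stood far below the others of its group in 9 of the named ones: 11.13 in rpl-4, 9.961 in rpl-18, 10.18 in rpl-2, 10.68 in rps-4, 8.098 in rpl-30, 8.589 in rpl-25.1, 11.46 in rpl-3, 9.566 in rpl-7A and 10.69 in rpl-5. The members' share of gene counts in that library, 11.18%, was within its group.

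Control starved library 13 of batch 2 had a large to small subunit ratio of 0.9859, below the other 6, and high values of rps-18 (10.92) and rps-21 (9.725). Fed short-term dauer LC13 was high in rps-28, at 9.449.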

How the results depend on the processing

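Counts of called members in the short-term dauer feeding response (57), in both response differences (0), and in starved and fed ancestry (0) stayed within 1.5 times under every alternative run, with ranges of 53 to 59 for the first and 0 to 0 for the others when 1 library was left out. The control feeding count (31) was 11 with library totals, 8 without the low-count filter, 59 in limma voom with library weights, 51 with lane as a term, 53 without both libraries that stand apart and 5 to 53 with 1 library left out. The long-term dauer count (1) was 3 with DESeq2 size factors, 13 with library totals, 0 without the filter, 36 in DESeq2, 59 in limma voom, 25 with lane, 0 with the compared groups alone, 13 with TMM factors computed without the members, 55 without both libraries that stand apart and 0 to 44 with 1 left out. The batch count (18) was 7 without the filter, 38 in limma voom and 16 to 26 with 1 left out. Leaving out both libraries, and the 3 low in starvation markers, was chosen after seeing the data; the latter left the starved ancestry counts at 0 and the batch count at 17. These counts are given without the share of all genes called under each setting. The causes were not tested.

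With the replicate number as a block, the control count was 51, the long-term one 22 and the short-term one 59. Here too the share of all genes called is not given, so these counts cannot be read as changes of the members alone. Same-numbered fed and starved libraries correlated in their deviations from -0.203 to 0.522 over 11 pairs, and 15 of 22 libraries correlated best with their own number, a hint from the data only. No blocked fit was possible for fed long-term dauer or batch.

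The fed minus starved share was 0.946, 2.06 and 1.96 percentage points in control, short-term and long-term descendants, and with 1 library left out 0.524 to 1.495, 1.71 to 2.44 and 1.30 to 2.47. Median coherence with library totals was 0.942 in fed and 0.755 in starved batch 1 libraries; with 1 left out it was 0.946 to 0.988, 0.947 to 0.978 and, in starved batch 2, 0.949 to 0.966. Among named members, leaving out 1 library at a time gave 76 gained and 87 lost calls beside 2337 that did not change, and none reversed.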
